A study of Mus musculus with 14 samples.

Results

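The genes described here hold back cell division, growth or cell survival: the cyclin-dependent kinase (CDK) inhibitors Cdkn1a, Cdkn1b and Cdkn1c, the pro-apoptotic gene Bcl2l11, the sestrins Sesn1 and Sesn3, and the signalling brakes Rassf1, Socs3 and Fbxw7. These 9 genes were taken by name from 21883 annotated protein-coding genes, and each was followed over its gene body with 5 kb on both sides. Mouse liver chromatin was precipitated with antibodies against LSD1, H3K4me2 and H3K4me1 in wild-type C57BL/6 mice (WT) and in C57BL/6 mice with an inducible YAP transgene (YAP), YAP being the growth-promoting co-activator restrained by the Hippo pathway. Expression of YAP was induced with doxycycline at 50 mg/L in the water for 10 days. The doxycycline statement stands on the samples of both genotypes, so whether WT mice also drank it is not clear from the labels, and the promoter that drives the transgene, sex and age are not given there. Each antibody was used on 2 replicates per genotype, but the lists of enriched regions analysed here hold 1 list per antibody and genotype. The spread between replicates could therefore not be measured, no test was made, and every difference below is a difference between 2 lists. Read depth behind the lists is unknown.

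CDK inhibitors of the Cip/Kip family bind cyclin-CDK complexes and stop the entry into S phase, and in liver they hold hepatocytes in the resting state from which the organ can regenerate. H3K4me2 is the dimethyl form of lysine 4 on histone H3 and marks promoters and enhancers, whereas H3K4me1 is typical of enhancers. LSD1 is a demethylase that removes both marks, and it acts within complexes that also hold histone deacetylases. A gene with several promoters can carry these marks at each of them.

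The lists had the features of liver chromatin. All 5 hepatocyte markers carried H3K4me2, with 49.4 kb summed over Alb, Apoa1, Ttr, Hnf4a and Cebpa in WT and 39.0 kb in YAP. The 4 macrophage markers (Adgre1, Clec4f, Cd68 and Spi1) summed to 5.15 kb in WT, where Adgre1 and Clec4f were at 0, and to 12.3 kb in YAP. The leukocyte gene Ptprc held 0 and 2.70 kb, and the T cell gene Cd3e was at 0 in both lists. Bile duct markers held 4.47 and 5.30 kb, with Krt7 and Krt19 at 0 in both lists, and stellate markers held 0.406 and 0.629 kb, all of it at Lrat, with Des and Pdgfrb at 0. The endothelial markers summed to 3.66 and 6.46 kb, with Stab2 at 2.16 and 4.71 kb, Kdr at 1.51 and 1.53 kb and Pecam1 at 0 and 0.22 kb. In bulk liver, a change in the share of a cell type and a change of chromatin within cells cannot be told apart, and the part of other cell types in the differences below was not tested.

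LSD1 was listed at 7 of the 9 genes, and the genes fell into 4 patterns. In YAP only, 1 site each lay at Bcl2l11, Sesn3 and Rassf1, and in WT only, 1 site lay at Cdkn1b. Socs3 and Fbxw7 had a site at the same place in both genotypes, Sesn1 had 1 site in each genotype at different places, and Cdkn1a and Cdkn1c had none. Over all protein-coding genes LSD1 was listed in YAP only at 8.08%, in WT only at 2.85% and in both at 3.05%, which makes 14.0% in either list. Among the 14032 genes with H3K4me2 in both lists, which include all 9 genes, these shares were 12.3%, 4.38%, 4.71% and 21.3%. In total 4 sites were counted in WT and 6 in YAP. The genes were chosen with such results known, so their count is a description.

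**Figure D1:**
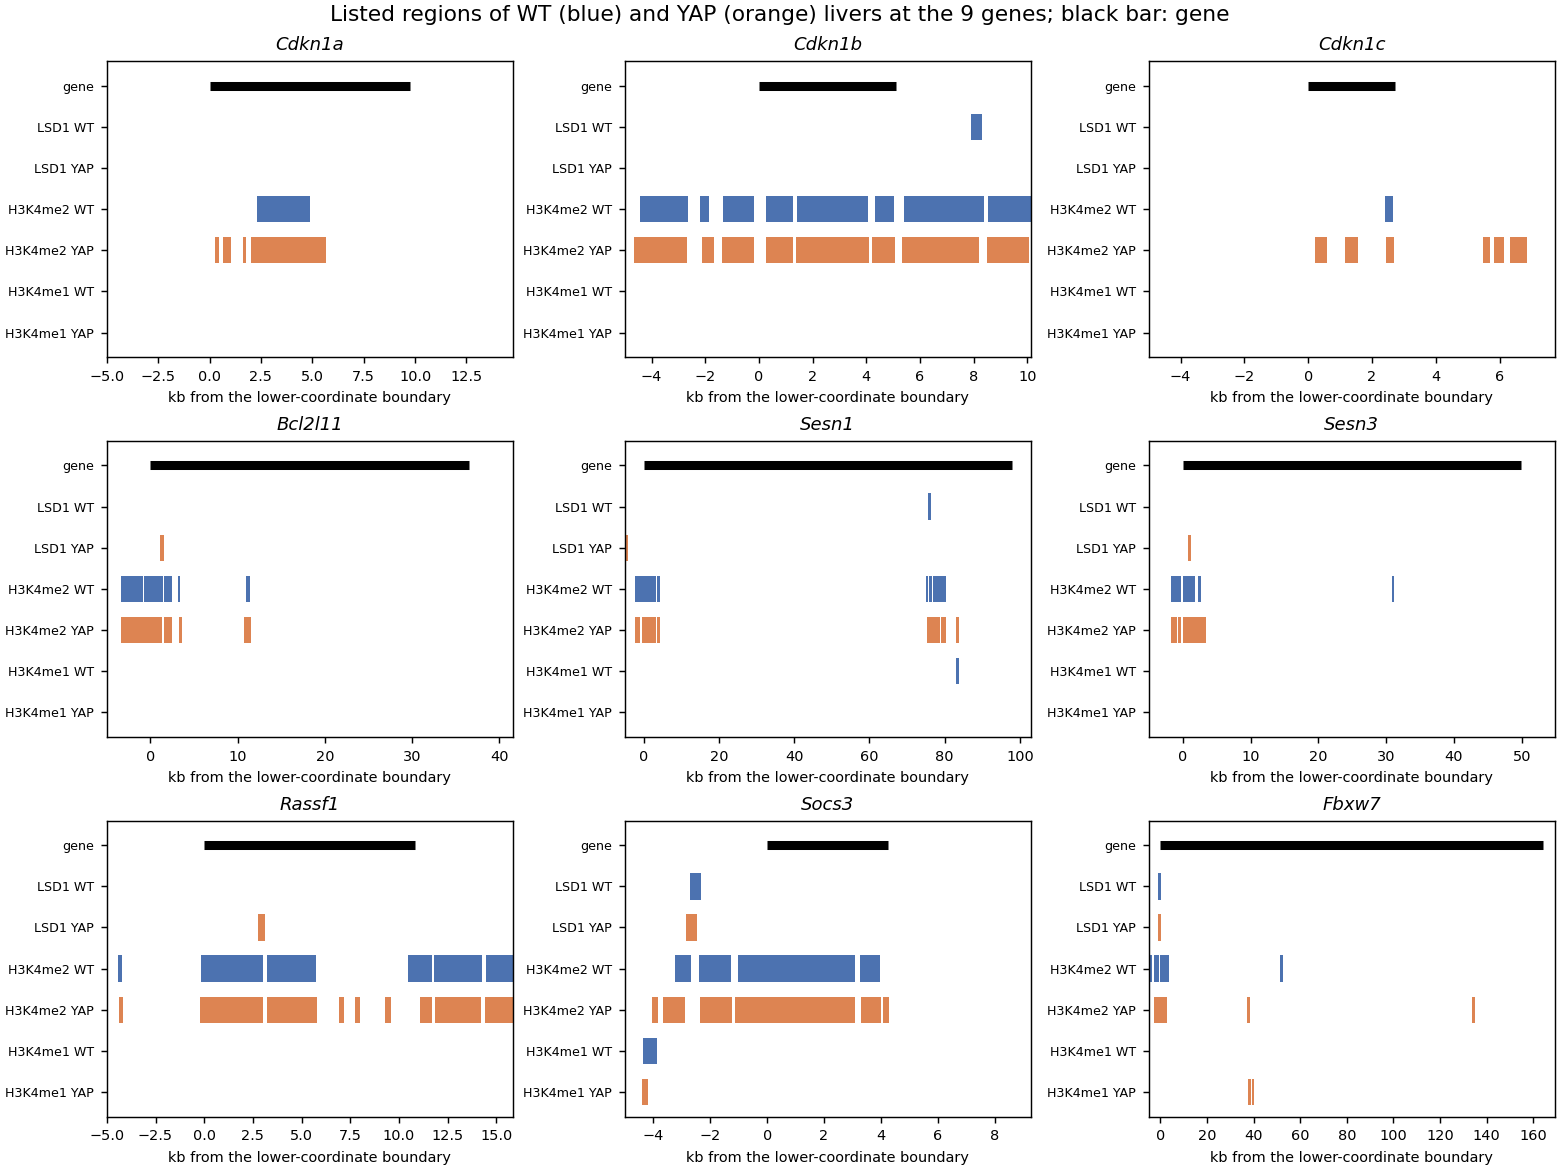
Positions of all listed regions at the 9 genes, in kb from the lower-coordinate gene boundary, with 1 row for each antibody and genotype (WT blue, YAP orange) and the gene as a black bar; very narrow regions are widened to stay visible. LSD1 rows are empty for Cdkn1a and Cdkn1c, and the H3K4me2 rows of both genotypes run in parallel at Cdkn1b and differ most at Cdkn1c.

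H3K4me2 was present at all 9 genes in both genotypes, as at 64.1% of all protein-coding genes, and 7 of the 9 differed by less than 1.5-fold. The 9 windows summed to 58.0 kb of H3K4me2 for WT and 64.4 kb for YAP. Covered bases were higher in YAP at 8 genes and lower at Fbxw7, whereas 40.8% of the 14912 genes with any H3K4me2 were higher. The 8 became 6 with the higher-scoring 50% of each list, where Sesn1 (log2 ratio -0.15) and Rassf1 (-0.06) turned lower. They were also 6 when a region counted only for the nearest gene, where Bcl2l11 (-0.57) and Rassf1 (-0.04) turned lower. The log2 ratio used throughout was formed from the covered bases of YAP and of WT, each with 500 bases added. Its median over the 9 genes was 0.13, beside -0.06 over the 14912 genes (quartiles -0.25 and 0.14). Only Cdkn1a and Cdkn1c were past 1.5-fold, both higher in YAP, and no gene was lower past 1.5-fold. Over all genes with H3K4me2, 7.71% were higher and 7.25% lower by this rule.

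**Figure D2:**
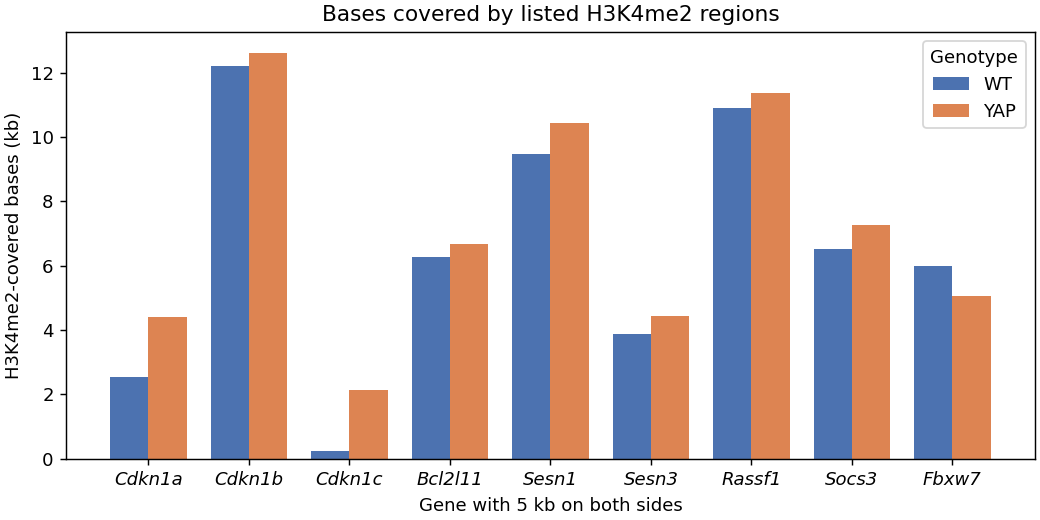
H3K4me2-covered kb at each gene with 5 kb on both sides in WT (blue) and YAP (orange), 1 list per genotype and therefore no error bars. Cdkn1c and Cdkn1a stand at 0.234 and 2.54 kb in WT and at 2.13 and 4.41 kb in YAP, and Fbxw7 is the only gene with the lower bar in YAP.

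**Figure D3:**
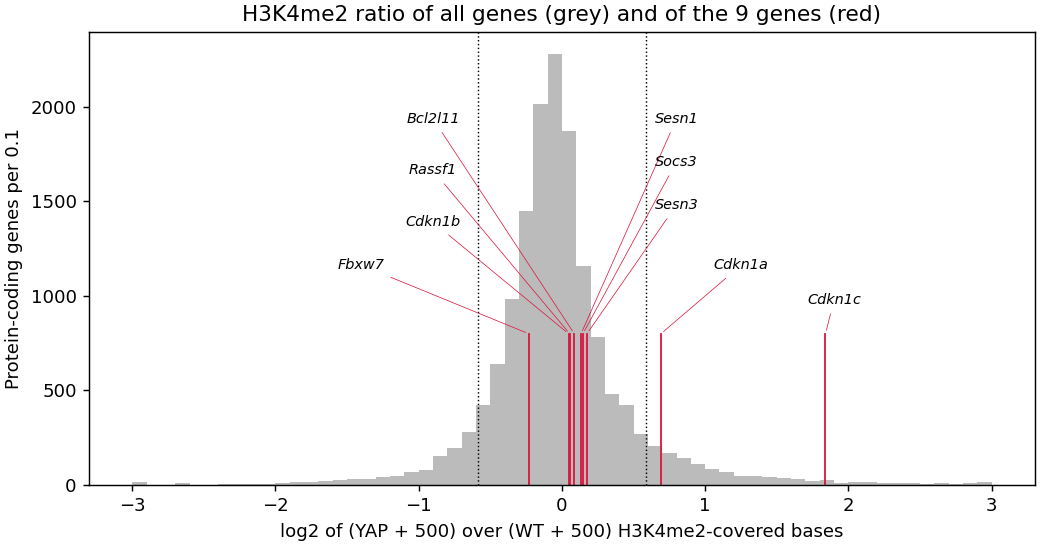
Distribution of the H3K4me2 log2 ratio over 14912 protein-coding genes (grey, values past 3 drawn in the outermost bins) with the 9 genes in red and dotted lines at 1.5-fold. Cdkn1a and Cdkn1c lie to the right of the upper line, and the other 7 genes lie between the lines.

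Cdkn1c encodes a CDK inhibitor that is imprinted and active mainly in development. Its H3K4me2 cover was the smallest of the 9 genes. In WT a single region of 234 bp lay inside the gene next to its higher-coordinate boundary (chromosome 7, 143460759 to 143460992; gene 143458339 to 143461059), and 0.234 kb of the window was covered. In YAP the same place held a region of 269 bp, and 5 further regions were listed, which brought the cover to 2.13 kb, a log2 ratio of 1.84 that exceeded 99.1% of genes. Only 10.7% of the bases covered in either genotype were shared. Of the added regions 2 lay inside the gene, and the other 3 (143463811 to 143465199) lay within the bounds of Gm33663, a neighbouring long non-coding RNA (lncRNA) gene, which held 1088 of the covered bases. Inside the gene the log2 ratio was 1.07 without the flanks. The value depended on the number of bases added before the ratio, with 2.74 for 100 bases and 0.89 for 2000, and it was 1.37 in the higher-scoring 50% of each list. Most of the added regions were weak: 4 of the 5 had authors' scores of 35 to 40, which placed them above only 6.24% to 9.69% of the YAP H3K4me2 list, and the fifth (143464676 to 143465199) had a score of 113, above 58.3%.

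Cdkn1a encodes the CDK inhibitor through which p53 stops the cell cycle. Its 2 annotated starts are at 29090979 and 29093769 on chromosome 17 (gene 29090979 to 29100722). The second start was on H3K4me2 in both genotypes. The WT list had a single region of 2541 bp over it (29093307 to 29095847), and a YAP region of 3630 bp contained all of the WT region and reached farther on both sides (29093005 to 29096634). Between the starts, YAP had 3 small regions of 204, 389 and 183 bp that had no WT counterpart, all within 2 kb downstream of the first start. Within 2 kb of the first start, 0 kb was listed in WT and 0.776 kb in YAP, and within 2 kb of the second start 2.46 and 3.22 kb were listed. The whole window held 2.54 kb in WT and 4.41 kb in YAP, a log2 ratio of 0.69. The 3 small regions had scores of 35 to 40 and stood above 4.74% to 12% of their list, and with only the higher-scoring 50% of each list the log2 ratio was 0.44, below 1.5-fold. No LSD1 and no H3K4me1 region was listed at Cdkn1a or Cdkn1c in either genotype.

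Cdkn1b, the other inhibitor of the family and the one most associated with quiescent cells, carried the broadest cover of the 9 genes and the most similar one. H3K4me2 lay on 8 regions in WT and 8 in YAP, covering 12.2 and 12.6 kb of a 15.1 kb window, and 91.7% of the covered bases were shared. The median over genes with H3K4me2 in both lists was 72.2%. The annotated start (chromosome 6, 134920401) lay in a gap between regions in both genotypes, with 2.87 and 3.12 kb within 2 kb of it. The WT-only LSD1 site (134928306 to 134928701, score 734, above 50.8% of the WT sites) was not at this start. It was 2978 bp past the end of the gene (134925525) and 589 bp before the start of Lockd, an lncRNA gene downstream of Cdkn1b, both counted from the centre of the site. All 396 bases of the site were on H3K4me2 in WT, where the region ended at 134928797. In YAP, where no LSD1 was listed, that region ended at 134928600 and 295 of the 396 bases were on H3K4me2.

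Bcl2l11 encodes BIM, a protein that starts apoptosis by binding to BCL2 and its relatives. Its YAP-only LSD1 site (chromosome 2, 128127187 to 128127586) lay at the second of 2 annotated starts, with its centre 189 bp upstream of that start (128127575). Rassf1, a scaffold that binds the Hippo kinases and has a long and a short form read from separate promoters, showed the same arrangement. Its YAP-only site (chromosome 9, 107554175 to 107554574) had its centre 209 bp upstream of the second start (107554583). At both genes the site began on a H3K4me2 region and reached into the gap before the next one. The 250 bases upstream of each of these starts are shown on the strand of the gene, as given by RefSeq for GRCm38.p6, whose coordinates are those of mm10. Capitals mark bases inside the LSD1 site and outside the H3K4me2 regions of the same genotype.
Bcl2l11, second start, chr2:128127325-128127574, plus strand: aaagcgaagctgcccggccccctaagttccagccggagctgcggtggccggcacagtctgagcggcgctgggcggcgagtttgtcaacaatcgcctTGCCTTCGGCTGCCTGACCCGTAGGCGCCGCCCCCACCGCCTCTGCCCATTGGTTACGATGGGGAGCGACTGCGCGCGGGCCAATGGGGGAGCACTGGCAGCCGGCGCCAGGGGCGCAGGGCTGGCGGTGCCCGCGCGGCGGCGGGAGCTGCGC
Rassf1, second start, chr9:107554333-107554582, plus strand: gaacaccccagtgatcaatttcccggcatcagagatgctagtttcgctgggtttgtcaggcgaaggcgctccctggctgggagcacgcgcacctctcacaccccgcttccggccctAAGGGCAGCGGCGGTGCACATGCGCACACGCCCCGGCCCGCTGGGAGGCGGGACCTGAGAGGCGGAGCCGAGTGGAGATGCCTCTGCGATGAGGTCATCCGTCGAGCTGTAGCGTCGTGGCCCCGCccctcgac
The LSD1 site took in 250 and 242 of these 250 bases, and 154 and 126 bases were in capitals. Both stretches were rich in G and C, at 73.2% and 67.2%, and held 30 and 24 CG dinucleotides.

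At Bcl2l11, the cover by H3K4me2 was 6.26 and 6.68 kb in WT and YAP (log2 ratio 0.09), on 6 and 4 regions. The lower number came from 3 adjoining WT regions (128122645 to 128127427) that were listed as 1 region of 4794 bp in YAP. The window also took in the end of Acoxl, a neighbouring gene whose bounds overlap those of Bcl2l11, with 3443 covered bases in WT and 3626 in YAP. The log2 ratio was -0.57 when each region counted only for the protein-coding gene nearest to its centre. In that setting the YAP region of 4794 bp went to Acoxl. The WT region of 1406 bp at the first start (128126022 to 128127427) stayed with Bcl2l11. At Rassf1, 10.9 and 11.4 kb were covered (log2 ratio 0.06) on 6 and 9 regions. The 3 added YAP regions (255, 292 and 325 bp, scores of 31 to 45) lay inside the gene, while 2641 and 2652 of the covered bases belonged to the neighbouring gene Tusc2. The added regions of 292 and 325 bp also lay within Gm9917, an lncRNA gene whose bounds overlap the end of Rassf1 and contain Tusc2. Gm9917 held 4702 of the covered bases in WT and 4769 in YAP, those of Tusc2 included. The gap entered by the LSD1 site had nearly the same ends in both genotypes. The first region ended at 107554448 in both genotypes and the next began at 107554654 in WT and 107554658 in YAP. Neither gene had a H3K4me1 region.

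The sestrins are stress-induced proteins that lower growth signalling through mTORC1, and Sesn1 is a p53 target while Sesn3 is induced by forkhead factors. At Sesn3, the YAP-only LSD1 site (chromosome 9, 14277055 to 14277454) had its centre 953 bp downstream of the only annotated start (14276301). It lay wholly on H3K4me2, with 400 of 400 bases covered in both genotypes. The WT H3K4me2 region under it spanned 14276343 to 14278181, and the YAP region spanned 14276359 to 14278781. Over the whole window 3.88 and 4.45 kb were covered (log2 ratio 0.17), and a WT region of 200 bp far inside the gene (14307232 to 14307431) was not in the YAP list.

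Sesn1 was counted as having LSD1 in both genotypes, but its sites had nothing in common. The WT site (chromosome 10, 41886303 to 41886698, score 869, above 70.1% of WT sites) was inside the gene, with its centre 939 bp upstream of the second of 2 starts (41887439). The YAP site (41805806 to 41806205, score 596, above 15.8% of YAP sites) lay 4569 bp before the gene, inside the bounds of Cep57l1, a neighbouring gene on the opposite strand, and on no H3K4me2. Counted only for the nearest protein-coding gene, Sesn1 had LSD1 in WT only. At the place of the WT site, 234 of its 396 bases were on H3K4me2 in WT and 377 in YAP. The YAP region there was weak, with a score of 43, above 16.1% of its list. The WT region had a score of 161, above 70.7% of its list. Cover around both starts differed little, with 3.63 and 3.39 kb in WT and YAP within 2 kb of the first start and 2.85 and 2.94 kb at the second. The whole window held 9.48 kb in WT and 10.4 kb in YAP (log2 ratio 0.13).

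A WT-only H3K4me1 region lay 6551 bp downstream of the second Sesn1 start (41893824 to 41894157, 334 bp). In YAP the H3K4me1 list had nothing there, but a H3K4me2 region (41893758 to 41894197) covered all 334 bases, and WT had no H3K4me2 at this place. Over the whole WT list, 2.39% of 5905 H3K4me1 regions were absent from the YAP H3K4me1 list and from WT H3K4me2 but overlapped H3K4me2 in YAP. The Sesn1 region had a -log10 q of 0.0496 in the authors' list, so it was weakly supported, although it ranked above 74.2% of the WT H3K4me1 list. The value was 0 for 67.5% of H3K4me1 regions in WT and for 37.9% in YAP.

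Socs3 encodes the feedback inhibitor of JAK-STAT signalling that is induced by interleukin-6 in hepatocytes. LSD1 was listed at one place in both genotypes, at 117963355 to 117963750 in WT and 117963228 to 117963627 in YAP on chromosome 11, with scores of 773 and 890 that exceeded 57.7% and 64.8% of their lists. Both sites were downstream of the gene, 2527 and 2652 bp from the gene body (117966079 to 117970336, minus strand), and 5814 and 5939 bp downstream of the annotated start. The site fell into a gap between H3K4me2 regions that was 269 bp long for WT (117963408 to 117963676) and 519 bp for YAP (117963189 to 117963707). Weak regions set the lower-coordinate end of this gap. Their scores were 51 in WT and 57 in YAP, above 25.6% and 30.2% of their lists. In WT 127 of 396 bases of its site were on H3K4me2, and in YAP none of the 400 bases of its site were. The cover of the window was 6.53 kb in WT and 7.27 kb in YAP (log2 ratio 0.15).

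Fbxw7 encodes the F-box subunit of a ubiquitin ligase that marks MYC and cyclin E for destruction. LSD1 lay just outside its lower-coordinate boundary in both genotypes, at 84814270 to 84814665 in WT and 84814272 to 84814870 in YAP on chromosome 3 (gene 84814990 to 84979198), where the YAP stretch joins 2 overlapping entries. These were the highest-ranked LSD1 sites of the 9 genes: with a score of 1000 and signals of 41.2 and 94.8 they stood above 86.1% of the WT and 99.9% of the YAP sites. Scores end at 1000, a value shared by many sites, and sites of equal score were ranked by signal. Scores of 990 or less were held by 82.07% of WT and 73.69% of YAP sites. The centre of the WT site was 523 bp outside the gene boundary, with the first annotated Fbxw7 start farther in at 84815577, and it lay 34 bp upstream of the start of Gm35486, an lncRNA gene that is read in the other direction. The 250 bases upstream of that Gm35486 start are given on its own strand with the same use of capitals, because the LSD1 site centred there was common to both genotypes.
Gm35486 start, chr3:84814434-84814683, minus strand: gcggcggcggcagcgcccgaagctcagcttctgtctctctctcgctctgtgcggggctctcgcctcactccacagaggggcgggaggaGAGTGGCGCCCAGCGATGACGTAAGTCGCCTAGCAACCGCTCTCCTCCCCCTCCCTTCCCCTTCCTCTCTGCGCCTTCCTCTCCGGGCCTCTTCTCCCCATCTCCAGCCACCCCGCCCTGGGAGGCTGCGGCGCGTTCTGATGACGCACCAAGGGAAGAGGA
The WT site took in 232 of these bases, of which 162 were outside H3K4me2 in WT.

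H3K4me2 differed at this place. The gap under the Fbxw7 site was 172 bp long for WT (84814424 to 84814595) and 700 bp for YAP (84814207 to 84814906), and the YAP site lay wholly inside it, whereas 224 of 396 bases of the WT site were on WT H3K4me2. A single WT region of 3250 bp (84814596 to 84817845) corresponded to YAP regions of 323 and 2446 bp, and within 2 kb of the first start 3.83 kb was covered in WT and 3.21 kb in YAP. No H3K4me2 was listed within 2 kb of the other 2 starts in either genotype. Over the whole window the cover was 6.00 kb in WT and 5.05 kb in YAP, a log2 ratio of -0.23 that exceeded 27.1% of genes. The ratio was -0.02 without the flanks and -0.48 in the higher-scoring 50% of each list. The bounds of Gm35486 held 1997 of the covered bases in WT and 1410 in YAP. The YAP list also had 2 H3K4me1 regions inside the gene (84853152 to 84853354 and 84854635 to 84854870), with a YAP-only H3K4me2 region next to the first (84852483 to 84853032). The -log10 q values of these H3K4me1 regions were 0 and 0.173, and 37.9% of all YAP H3K4me1 regions had the value 0. These 2 H3K4me1 regions and the H3K4me2 region beside them also lay within Gm40080, an lncRNA gene inside the bounds of Fbxw7.

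**Figure D4:**
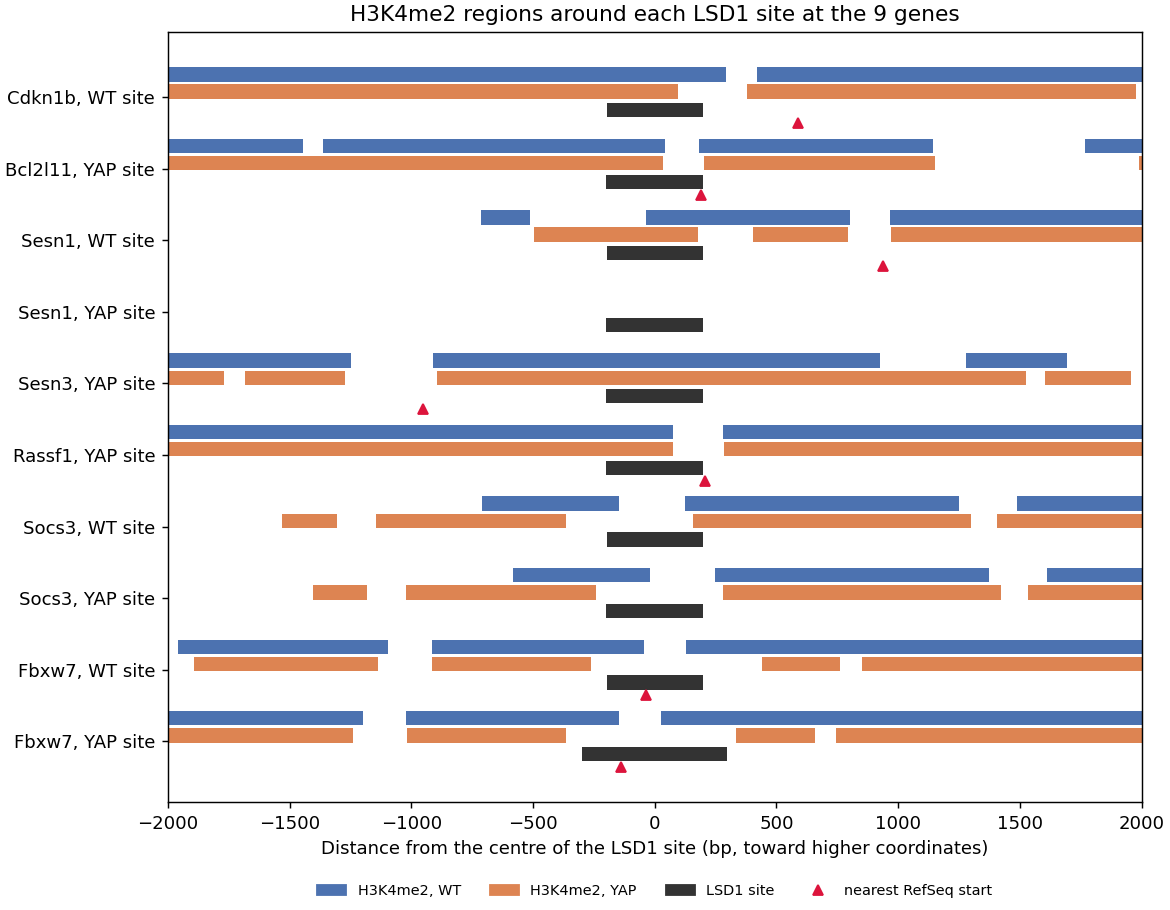
H3K4me2 regions of WT (blue) and YAP (orange) within 2000 bp of the centre of each LSD1 site (dark bar) at the 9 genes, in bp toward higher coordinates, with the nearest RefSeq start as a red triangle where it falls in range. The gap under the Socs3 and Fbxw7 sites is wider in YAP (519 and 700 bp) than in WT (269 and 172 bp), and the YAP site of Sesn1 has no H3K4me2 in range.

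The sites at Socs3 and Fbxw7 were the only common sites of the 9 genes, and at both the gap in H3K4me2 was wider in YAP by at least 250 bp. Of the 507 WT LSD1 sites found in YAP, 43 had their centre in a gap of at most 1 kb in both H3K4me2 lists. The gap was wider in YAP at 29 of these (67.4%), wider in WT at 13 and equal at 1, with median gaps of 302 bp for WT and 373 bp for YAP. A widening of at least 250 bp was seen at 5 of the 43 (11.6%), Socs3 and Fbxw7 included. The measure was chosen after the regions of the 2 genes had been seen, and its limit of 250 bp equals the difference at Socs3, so the count is a description only. Gaps without an LSD1 site were not measured, so whether the widening is particular to LSD1 sites was not tested. The whole H3K4me2 list covered 52.2 Mb in WT and 49.0 Mb in YAP.

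Most of the LSD1 sites lay near an annotated start, but in part that of a neighbouring gene. The centre was within 1 kb of a RefSeq start of any gene for 3 of 4 WT sites and 4 of 6 YAP sites. That start belonged to Lockd for the WT site at Cdkn1b and to Gm35486 for the sites at Fbxw7. The place at Fbxw7 was thus counted in both genotypes. Over all sites of the lists the shares were 37.2% in WT and 35% in YAP. All sites were not limited to gene windows, whereas those of the 9 genes lay in gene bodies with 5 kb on both sides. This choice favours sites near starts, so whether nearness to a start is particular to these genes was not tested. At least 1 base was on H3K4me2 of the same genotype for 4 of 4 WT and 3 of 6 YAP sites. The YAP sites without it were those of Sesn1, Socs3 and Fbxw7. Over all sites, again not limited to gene windows, the shares were 72.3% in WT and 64.9% in YAP. These counts are therefore a description only. No site of the 9 genes overlapped H3K4me1 in either genotype.

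The YAP-only sites stood low in their list. The sources used here do not define the LSD1 score, and it is read here only as a rank within a list. Scores were 550 at Rassf1, 605 at Bcl2l11 and 606 at Sesn3, above 3.19%, 18% and 18.3% of the YAP sites. With both LSD1 lists limited to an equal number of entries, or to the higher-scoring 50% of each, none of the 3 genes had LSD1 in either genotype, and 2 genes (Cdkn1b and Sesn1) had it in WT only. The sites of Socs3 and Fbxw7 remained in both lists in these settings.

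**Figure D5:**
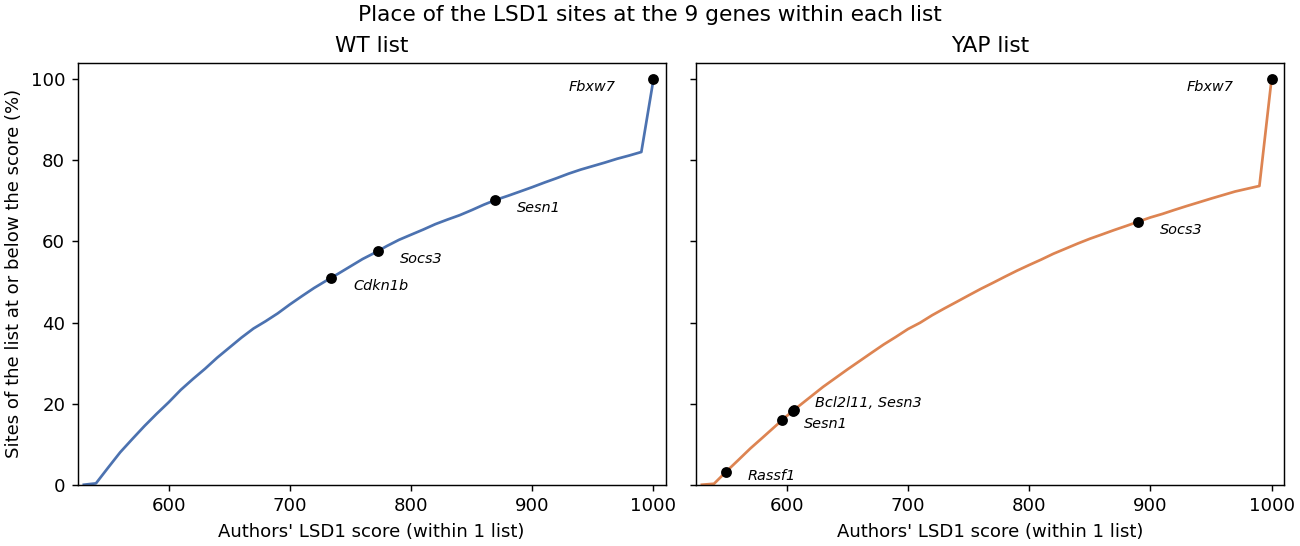
Authors' LSD1 score against the percentage of sites of the same list at or below it, for WT (left) and YAP (right), with the sites at the 9 genes as black points. The YAP sites of Rassf1, Sesn1, Bcl2l11 and Sesn3 have scores of 550 to 606 at the lower end of the curve. The site of Fbxw7 has a score of 1000 in both lists, the upper limit of the score, which many sites share.

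H3K4me2 was listed on more regions in YAP at 5 of the 9 genes, fewer at Bcl2l11 and Sesn1, and the same number at Cdkn1b and Fbxw7, with 45 regions in WT and 56 in YAP. Regions that overlapped none of the other list were found in both directions. They were in the YAP list at Cdkn1a, Cdkn1c, Rassf1, Socs3, Sesn3, Sesn1 and Fbxw7. In the WT list they were at Sesn1, Sesn3 and Fbxw7. The share of such regions over the whole lists was not computed, so they are a description only. More regions in YAP were found for 33.1% of all genes with H3K4me2. Among the higher-scoring 50% of regions the ratio of region numbers, YAP over WT, was 1.0 instead of 1.24. H3K4me1 was listed at 3 of the 9 genes (Sesn1, Socs3 and Fbxw7), with 2 regions in WT and 3 in YAP, and it was at 14.5% of all genes. The state was YAP only at Fbxw7 (4.98% of all genes), WT only at Sesn1 (3.16%) and both at Socs3 (6.33%). At Socs3 the regions of both genotypes overlapped beyond the end of the gene (117961734 to 117962196 in WT, 117961669 to 117961876 in YAP), and 174 bases of the WT region were on a H3K4me2 region listed in YAP only (117962023 to 117962246).

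Most promoters of these genes were rich in G and C. Of the 9 genes, 8 had starts in the promoter table, 14 in all, from 250 bases before to 50 after each start, and Cdkn1c had none there. Their median content of G and C was 66.5% with 25.5 CG dinucleotides, beside 56.3% and 13 over 21262 starts of protein-coding genes. The exceptions were the first start of Cdkn1a (54.7%, 2 CG) and the 2 inner starts of Fbxw7 (29.7% and 46.0%, 1 and 6 CG), all of which had no H3K4me2 within 2 kb in WT. Motifs were searched as letters on both strands, and none of them contains another. The GC box GGGCGG was in 12 of 14 promoters, beside 46.2% of all, and CCAAT in 7 of 14, beside 38.2%. The shares of all promoters were not matched for content of G and C, and 5 of the genes gave more than 1 start. These counts are therefore a description only. The forkhead motif TGTTTAC was at the first starts of Bcl2l11 and Sesn1 (3.01% of all promoters), and the STAT motif TTCNNNGAA was at Socs3 (7.69% of all), at position -154 from the start. The TEAD core GGAATG, the AP-1 motif TGANTCA and the E-box CACGTG were in none of the 14 (13.6%, 6.99% and 7.84% of all), which says only that these letters are not in these windows.

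Among 57 further genes of growth and death control, LSD1 was listed in YAP only at 8, in WT only at 2 and in both at 5 (Sesn2, Plk2, Bcl2l1, Rbx1 and Foxo3), and H3K4me2 was higher past 1.5-fold at 2 (Gadd45b and Bid) and lower at 3 (Cdkn2b, Rbl2 and Hrk). Their median log2 ratio was -0.10. Over all protein-coding genes, LSD1 was in YAP only at 8.08%, in WT only at 2.85% and in both at 3.05%. Among genes with H3K4me2 in both lists these shares were 12.3%, 4.38% and 4.71%. Of all genes with H3K4me2, 7.71% were higher and 7.25% lower past 1.5-fold. The counts here and in the gene families below are a description only. In the BCL2 family, 3 of 12 genes had LSD1 in YAP only: Bcl2, the survival gene (chromosome 1, 106629656 to 106630254, score 1000), and Bbc3 (score 960) and Bmf (score 637), which encode pro-apoptotic BH3-only proteins like that of Bcl2l11. Of 12 p53 and stress response genes, the anti-proliferative Btg2 (score 1000) and Gadd45b (score 707) had it in YAP only, and Sesn2, the remaining sestrin, had it in both. At Gadd45b the H3K4me2 cover was 3.62 kb for WT and 5.88 kb for YAP (log2 ratio 0.63). Of 9 other RASSF genes, Rassf4 (score 967) and Rassf3 (score 810) had LSD1 in YAP only and Rassf6 (score 1000) in WT only. Of 7 other SOCS genes, Cish (score 604) had it in WT only. Skp2, which targets Cdkn1b protein for destruction, was the only one of 6 SCF ubiquitin ligase genes with LSD1 in YAP only (score 927), and Foxo3, a forkhead activator of Bcl2l11, had 2 sites in each genotype.

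Among the 8 other CDK inhibitors and pocket proteins, the H3K4me2 differences past 1.5-fold ran the other way from those at Cdkn1a and Cdkn1c: Cdkn2b, an inhibitor of CDK4 and CDK6, had 2.56 kb covered in WT but 1.40 kb in YAP (log2 ratio -0.69), and Rbl2, which encodes a relative of the retinoblastoma protein, had 4.41 and 2.60 kb (log2 ratio -0.66). The median of these 8 genes was -0.12. None of them had LSD1 in either list, which is the state of most genes, since 14.0% of all genes had it.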

How the data were processed

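Regions came from 6 lists deposited by the authors, 1 for each of 3 antibodies and 2 genotypes. The labels name each list on both replicates, and the inputs have none. The submitters' processing notes name the build mm10 along with deepTools 3.3.0, bedtools 2.26.0, Picard 1.126, SAMtools 1.7, BWA and Trimmomatic 0.39. How peaks were called, at which threshold, and how replicates were combined is not given in the sources used here. Chromatin was cut with micrococcal nuclease, per the labels' protocols. The score, the signal and, for histone marks, the −log10 q column are the authors' own values per region in the deposited lists, and were used only within a list. Overlapping LSD1 entries were merged (1718 to 1500 in WT, 3353 to 2949 in YAP). A region counted if it had at least 1 bp in the window, and YAP over WT ratios were computed from covered bases plus 500. Gene bounds and starts came from NCBI RefSeq tables for GRCm38.p6. Scripts ran in Python 3.11.15 with pandas 2.3.3, matplotlib 3.10.9 and numpy 2.4.6. Overlaps were tested on simulated data against bedtools 2.31.1. The genes and lists were chosen with earlier results of these data known. All 9 genes were named. From each related list up to 3 genes were to be named by differing LSD1 state and then by H3K4me2 ratio, and Sesn2, Plk2, Bcl2l1, Rbx1, Foxo3, Bid and Hrk were named after their values were seen. Alternatives changed flanks, list sizes, region assignment, added bases and overlap rules. A further lymphocyte marker is not reported here.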

Additional observations from a re-analysis of the deposited data

How the results depend on the processing

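Replicates stand together in each list, so leaving out a replicate was not run. No paired analysis was possible because each list holds both replicates. LSD1 in YAP only was 3 genes in the main setting and 0 with lists of equal size and with the higher-scoring 50% of each list. LSD1 in WT only was 1 gene and became 2 in both of these settings and when a region counted only for the nearest gene, and LSD1 in both genotypes was 3 genes, 1 with flanks of 2 kb and 0 without flanks. Without flanks and with 2 kb the WT-only gene was Sesn1 and no longer Cdkn1b. With flanks of 10 kb Rassf1 had LSD1 in both genotypes. H3K4me1 in both genotypes was 1 gene and 0 without flanks and with 2 kb, and in YAP only 1 gene and 0 among the higher-scoring 50%. Genes with H3K4me2 higher past the fold were 2, and 1 with 2-fold, with 2000 added bases (Cdkn1a at 0.50) and with the higher-scoring 50% of regions. Genes higher by any amount were 8, and 6 with the higher-scoring 50% and with the nearest gene only, and 7 with flanks of 10 kb. The median log2 ratio of the 9 genes stayed above 0 in all settings tried, from 0.03 to 0.15. Bcl2l11 had -0.57 when regions counted only for the nearest gene, where its YAP region of 4794 bp went to Acoxl. LSD1 sites touching H3K4me2 in YAP were 3 of 6, and 5 when H3K4me2 within 1 kb counted. For the related genes, LSD1 in WT only was 2 and became 1 among the higher-scoring 50%, where their median log2 ratio turned to 0.01 from -0.10; the cause was not tested.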

Other observations

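Genes with the cover most like that of a member were looked for over the 6 lists, as the smallest distance between log2 values of covered bases plus 500. Because every LSD1 entry has nearly the same width, genes with an equal number of LSD1 sites come out close, and no shared function follows. The closest genes were Tmx2 to Bcl2l11 (distance 0.008, covered by H3K4me2 over 6.24 kb for WT and 6.71 kb for YAP) and Cog7 to Sesn3 (0.015, with 3.89 and 4.50 kb), both with LSD1 in YAP only. H2-DMa was closest to Rassf1 (0.078), Hyal2 to Cdkn1b (0.159), Cryzl1 to Sesn1 (0.23), Tssk6 to Fbxw7 (0.288) and Sdk1 to Socs3 (0.461).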
